A study of Arabidopsis thaliana with 6 samples.

Results

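Casparian strips and suberin lamellae are the 2 wall barriers that the root endodermis lays down. The 9 Arabidopsis genes described here build or control them, and they were listed by name and role, with earlier results of these data known: CASP1 (AT2G36100), CASP2 (AT3G11550), CASP4 (AT5G06200), CASP5 (AT5G15290), ESB1 (AT2G28670), MYB36 (AT5G57620), SGN3 (AT4G20140), GPAT5 (AT3G11430) and CYP86A1 (AT5G58860). They are 9 of the 29030 gene loci on the array and are covered by 10 of its 43603 probes, since MYB36 has a pair of probes and every other gene has 1. All 10 probes were well above background on all 6 arrays, so all 9 genes were among the 21821 tested. The reference names AT4G20140 GSO1, and SGN3 is its name in work on the Casparian strip.

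A Casparian strip is a belt of lignin in the walls between endodermal cells that closes the path between cells to water and ions. CASP proteins gather in the plasma membrane under the future belt and hold the enzymes that polymerise lignin there, the transcription factor MYB36 switches these genes on, and the receptor kinase SGN3 senses from peptides of the stele whether the belt is sealed. Suberin, a polyester of fatty acids and glycerol, is later deposited around the whole endodermal cell by enzymes such as CYP86A1 and GPAT5.

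The compound tested, lasalocid sodium (LS), belongs to the polyether ionophores, which shuttle cations through membranes, and the study asked how it alters plant cell walls and the genes that respond. RNA of whole seedlings was hybridised to 1-colour Agilent arrays, with 3 arrays of LS-treated seedlings and 3 of control seedlings. All seedlings were wild type of the ecotype Col-0, were grown in the dark on agar for 3 days, and were then moved to liquid MS medium with sucrose and kept in the dark for 24 h. The medium held 1 μM LS for the LS-treated seedlings and 0 μM for the controls. Labels do not say whether the 3 samples of a group came from separate cultures, so the p-values measure the spread between these samples, which may be technical. The endodermis is a small part of a whole seedling, and in such bulk RNA fewer cells of a type and less RNA per cell cannot be told apart.

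Levels below are log2 processed signals minus the log2 75th percentile of the same array, so a level of 0 is a signal at that percentile. Levels of different probes are not compared. A gene was called higher or lower in LS where limma gave a Benjamini-Hochberg adjusted p under 0.05 over all tested probes and the fold change was at least 1.5. The arrays were not alike. LS array 3 was the brightest, with a 75th percentile of 2123.1 against 1066.6 to 1499.8 on the other 5, and its spike-in RNA lay 0.18 below that percentile on the log2 scale where the spike-in RNA of the other 5 arrays lay 0.85 to 1.51 above it. LS arrays 2 and 3 were on slide 2, and LS array 1 shared slide 1 with all 3 control arrays. The share of spots well above background ran from 72.6% to 77.0% per array. Within the LS group, 2 arrays differed by a median of 0.24 to 0.37 log2 units over the tested probes, against 0.16 to 0.23 in the control group.

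Among the 9 genes, CASP4 was called higher in LS and GPAT5 was called lower. CASP4 encodes one of the CASP scaffold proteins and rose 1.83-fold, while GPAT5 encodes an acyltransferase of suberin synthesis and fell to 0.477 of its control level. SGN3, the receptor kinase of barrier surveillance, was separated upwards between the groups without passing the threshold, and CASP5 was separated downwards in the same way. Levels of CASP1, CASP2, ESB1, MYB36 and CYP86A1 overlapped between the groups. These counts of 1 of 9 called higher and 1 of 9 called lower stand beside 694 of 21821 tested genes called higher (3.18%) and 478 called lower (2.19%). Their median change on the log2 scale was −0.12, beside −0.03 for all tested genes.

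**Figure D1:**
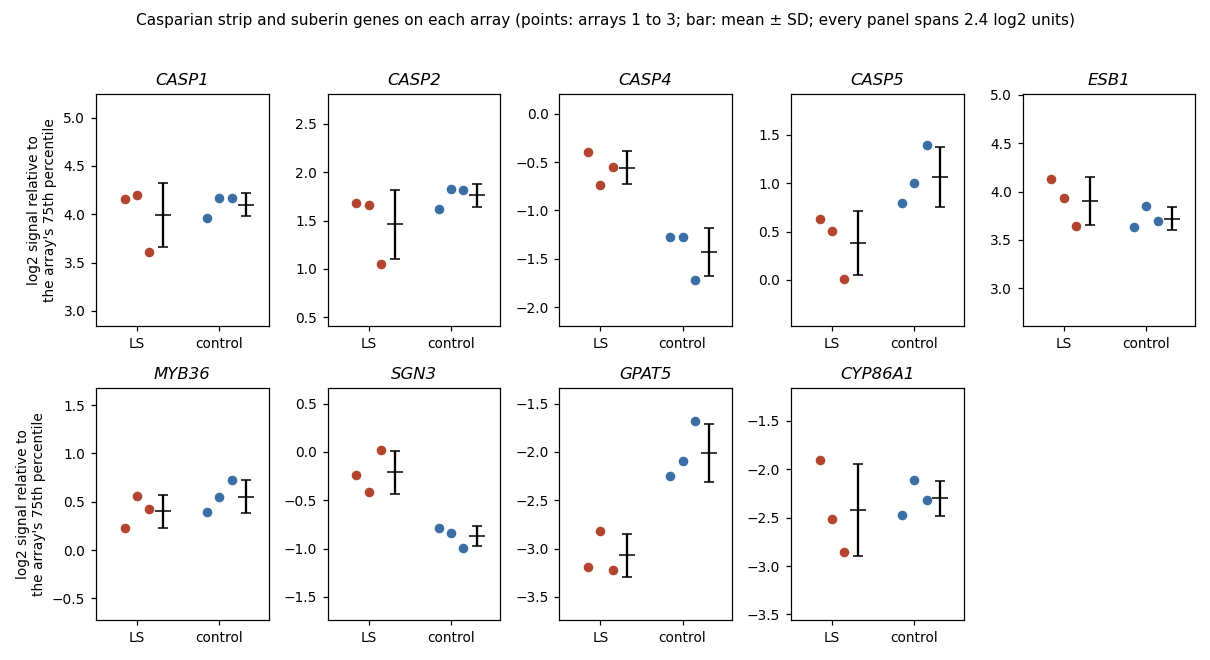
Level of each of the 9 genes on every array, as log2 signal relative to the array's 75th percentile, with LS arrays on the left and control arrays on the right of each panel, arrays 1 to 3 from left to right, and bars at the mean ± SD of 3 arrays. CASP4 and SGN3 sit higher on all LS arrays than on any control array, CASP5 and GPAT5 sit lower, and the other 5 genes overlap.

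Among CASP1, CASP2, CASP4 and CASP5, CASP4 was the gene that went up. Its levels were −0.40, −0.74 and −0.55 on LS arrays 1, 2 and 3, against −1.28, −1.28 and −1.72 on control arrays 1, 2 and 3. All LS arrays were above all control arrays. The mean was −0.56 ± 0.17 in LS and −1.43 ± 0.25 in control seedlings (SD, n = 3 each), and the log2 fold change was 0.87 (SE 0.19, limma, adjusted p = 0.0464). This p lay close to the threshold. With any one of the 6 arrays left out, the log2 fold change stayed between 0.72 and 0.96 but CASP4 was no longer called, with adjusted p between 0.0534 and 0.135 from limma. Within slide 1 alone, where LS array 1 stood against the 3 controls, the log2 fold change of CASP4 was 1.03 (limma, adjusted p = 0.101), in a fit that takes the single LS array to vary like the controls.

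CASP1, CASP2 and CASP5 had log2 fold changes below 0, and none passed the test. CASP5 levels were 0.63, 0.51 and 0.01 on LS arrays 1, 2 and 3, against 0.80, 1.00 and 1.40 on control arrays 1, 2 and 3. Every LS array was below every control array, and the log2 fold change was −0.68 (SE 0.24, limma, adjusted p = 0.127).

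CASP2 was at 1.68, 1.66 and 1.05 in LS, against 1.62, 1.83 and 1.82 in control seedlings. CASP1 was at 4.16, 4.20 and 3.61 in LS, against 3.96, 4.17 and 4.17 in control seedlings. For both genes LS arrays 1 and 2 were within or near the control range and LS array 3 was below it. The log2 fold change of CASP2 was −0.29 (95% interval −0.79 to 0.20, limma, adjusted p = 0.422) and that of CASP1 was −0.11 (95% interval −0.58 to 0.36, limma, adjusted p = 0.772). Without LS array 3 the CASP2 value was −0.09 and the CASP1 value turned to 0.08. The intervals leave room for a change of either sign, so these arrays do not show that CASP1 and CASP2 were unaffected.

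Over CASP1, CASP2, CASP4 and CASP5 the median log2 fold change was −0.20, with 1 gene called higher and 0 called lower at the adjusted threshold. At an unadjusted p under 0.05 from limma, CASP4 was higher and CASP5 lower. The difference between CASP4 and its relatives can be read within each array, where any scaling of the whole array drops out. CASP4 minus the mean of CASP1, CASP2 and CASP5, with the control mean set to 0, was 1.18, 0.87 and 1.63 on LS arrays 1, 2 and 3, against 0.33, 0.12 and −0.45 on control arrays 1, 2 and 3. The LS mean was 1.23 ± 0.38 and the control mean was 0 ± 0.40 (SD, n = 3 each), with no overlap. CASP5 minus CASP1, formed in the same way, was −0.50, −0.65 and −0.57 in LS against −0.13, −0.14 and 0.26 in control seedlings, again without overlap. Both differences were chosen after the levels were seen and carry no test.

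**Figure D2:**
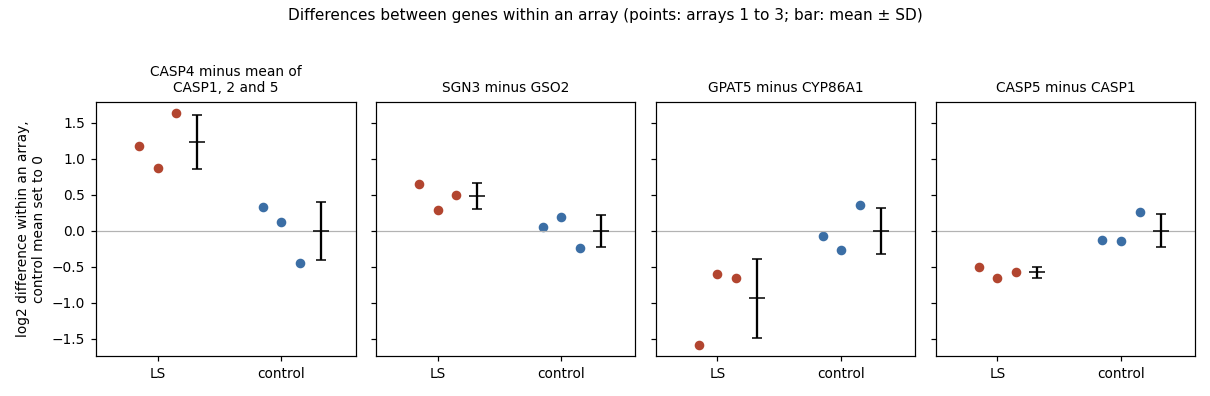
Differences between genes within an array in log2 units, with the mean of the control arrays set to 0, LS on the left and control on the right of each panel, points for arrays 1 to 3 and bars at the mean ± SD of 3 arrays. CASP4 against the mean of CASP1, CASP2 and CASP5 reached 0.87 to 1.63 in LS and −0.45 to 0.33 in control seedlings, and the groups are apart in all 4 panels.

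ESB1 and MYB36, which work with the CASP genes, did not pass the test. ESB1 is a dirigent-like protein needed for the lignin of the strip. It was at 4.13, 3.93 and 3.64 in LS, against 3.63, 3.85 and 3.69 in control seedlings, where LS arrays 1 and 2 were above all controls and LS array 3 was among them. The log2 fold change of ESB1 was 0.18 (95% interval −0.24 to 0.60, limma, adjusted p = 0.562).

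MYB36, the transcription factor that turns on CASP genes, was read by a bright and a dim probe. The bright probe was at 0.23, 0.56 and 0.42 in LS, against 0.39, 0.55 and 0.72 in control seedlings, with a log2 fold change of −0.15 (95% interval −0.55 to 0.25, limma, adjusted p = 0.616). The dim probe was at −3.26, −3.26 and −2.62 in LS, against −2.94, −2.84 and −3.00 in control seedlings, with a log2 fold change of −0.12 (95% interval −0.61 to 0.37, limma, adjusted p = 0.754). The groups overlapped on both MYB36 probes.

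SGN3 was higher on every LS array. Its levels were −0.24, −0.41 and 0.02 in LS, against −0.79, −0.84 and −0.99 in control seedlings, giving means of −0.21 ± 0.22 and −0.87 ± 0.10 (SD, n = 3 each). The log2 fold change was 0.66 (SE 0.17), a fold of 1.58, and the adjusted p of 0.0683 from limma missed the threshold. With a normexp background correction it was 0.60 and was called (limma, adjusted p = 0.0387). GSO2, the closest relative of SGN3 and a partner of it in embryo surface formation, had a log2 fold change of 0.18 (limma, adjusted p = 0.547). SGN3 minus GSO2 within an array was 0.65, 0.29 and 0.50 in LS against 0.05, 0.19 and −0.24 in control seedlings, with the control mean set to 0. The lowest LS array thus lay just above the highest control array.

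Of the pair of suberin genes, GPAT5 was called and CYP86A1 was not. GPAT5, which joins fatty acyl chains to glycerol, was at −3.19, −2.82 and −3.22 in LS, against −2.25, −2.09 and −1.68 in control seedlings. All LS arrays were below all control arrays, with means of −3.07 ± 0.22 in LS and −2.01 ± 0.30 in control seedlings (SD, n = 3 each). The log2 fold change of −1.07 (SE 0.21, limma, adjusted p = 0.0370) was the lowest of the 9 genes, and 674 of all tested genes (3.09%) were at or below it. With any one array left out the log2 fold change of GPAT5 stayed between −1.19 and −0.90, and it was called only without LS array 2 (limma, adjusted p = 0.0436), with adjusted p up to 0.128 in the other 5 fits. Within slide 1 it was −1.18 (limma, adjusted p = 0.0951). A fit with slide as a block gives the same differences by construction, since slide 2 held no control array, and called neither GPAT5 (limma, adjusted p = 0.170) nor CASP4 (limma, adjusted p = 0.169).

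CYP86A1, the hydroxylase that makes omega-hydroxy acids for suberin, was at −1.90, −2.51 and −2.86 in LS, against −2.47, −2.11 and −2.32 in control seedlings. LS array 1 was above all controls while LS arrays 2 and 3 were below them, so the LS spread of 0.48 (SD) exceeded the control spread of 0.18 (SD). The log2 fold change was −0.12 (95% interval −0.73 to 0.48, limma, adjusted p = 0.799), and it turned to 0.09 without LS array 3 and to 0.40 within slide 1. GPAT5 minus CYP86A1 within an array, with the control mean set to 0, was −1.58, −0.60 and −0.65 in LS against −0.08, −0.27 and 0.35 in control seedlings. That difference separated the groups and, like the one for SGN3, was chosen after the levels were seen and carries no test.

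Across the 9 genes, 3 had a log2 fold change above 0 and 6 below 0, where 47% of all tested genes were above 0. Their median of −0.12 turned to 0.08 without LS array 3, and to 0.06 within slide 1. The groups were separated with LS above for 2 genes (17.5% of all tested genes) and with LS below for 2 genes (17.7%). At an unadjusted p under 0.05 from limma, CASP4 and SGN3 were higher and CASP5 and GPAT5 lower, that is 2 of 9 in each direction, where 12.9% of all tested genes were higher and 13.1% were lower. Counts this small over 9 genes do not set the genes apart from these background shares. The LS arrays themselves differed. On LS arrays 1 and 2, 5 genes were above and 4 below their control mean, and the median difference was 0.06 on LS array 1 and 0.01 on LS array 2. On LS array 3, 7 of the 9 were below their control mean and the median difference was −0.49, although the median over all tested genes was −0.01 on that array. CASP4, CASP5, SGN3 and GPAT5 kept their sign on all 3 LS arrays, which follows from the separation of their groups. Within slide 1, the log2 fold changes of the separated genes that were not called were 0.63 for SGN3 and −0.44 for CASP5.

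**Figure D3:**
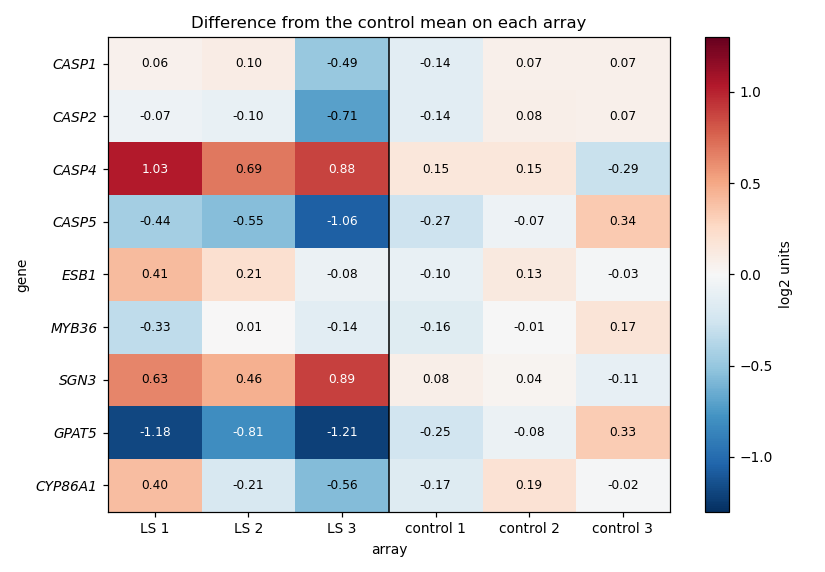
Difference of each gene from its control mean on each array, in log2 units, with LS arrays on the left of the black line and control arrays on the right (red higher, blue lower). CASP4 and SGN3 are positive and CASP5 and GPAT5 are negative on all 3 LS arrays, and CASP1, CASP2 and CYP86A1 are lowest on LS array 3.

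How the arrays are scaled mattered for the direction of the smaller changes. Quantile normalization, median centring and a normexp correction moved the median of all tested genes to 0.00, −0.10 and −0.05, and kept CASP4 at 0.85, 0.80 and 0.79 and GPAT5 at −1.13, −1.13 and −0.86. Under median centring CASP4 was not called (limma, adjusted p = 0.0510). Centring on the spike-in RNA moved the median of all tested genes to 0.56 and that of the 9 genes to 0.47. On that scale CASP4 was at 1.46 (limma, adjusted p = 0.103) and GPAT5 at −0.48 (limma, adjusted p = 0.596), and neither was called. CASP5 shrank to −0.09 (limma, adjusted p = 0.918), and CASP1, CASP2, MYB36 and CYP86A1 turned from below to above 0. The distance of each gene from the median of all genes is the same by construction under the 75th percentile, median and spike-in scalings, and 6 of the 9 genes lay below that median. With quantile normalization or the normexp correction 5 of the 9 did. The split of calls over all tested genes moved with the scaling as well, with 59.2% of calls higher under the 75th percentile and 92.8% under spike-in centring.

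**Figure D4:**
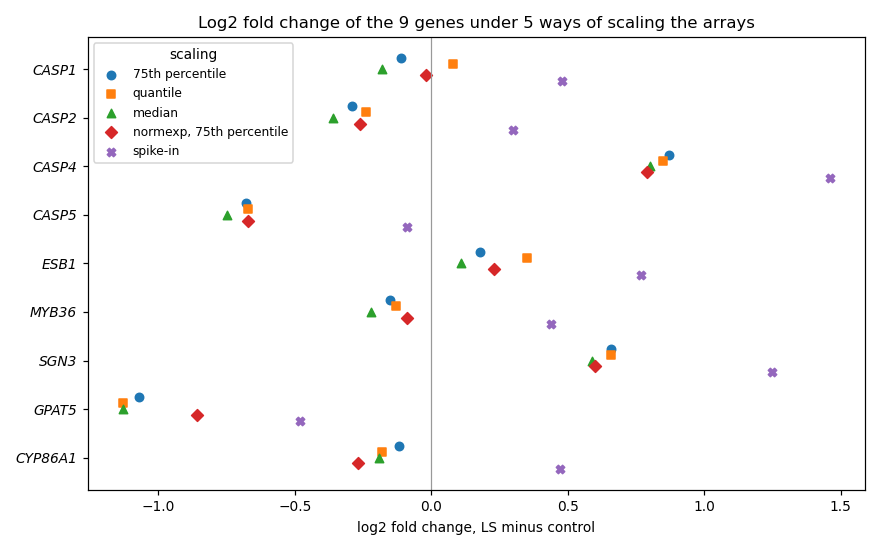
Log2 fold change (LS minus control) of the 9 genes under 5 ways of scaling the arrays, 1 symbol per scaling. CASP4 runs from 0.79 to 1.46 and GPAT5 from −1.13 to −0.48 without a change of sign, while spike-in centring lifts every gene and moves CASP1, CASP2, MYB36 and CYP86A1 above 0.

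Further genes of the barrier pathway were described from a list of 37 companion genes in 4 groups. Of these, 36 were tested, 4 were called higher and 2 lower, where 3.18% of all tested genes were called higher and 2.19% lower. One of the calls, MYB107, rests on a probe that was above background in LS only. The median log2 fold change of the companion genes was 0.00, beside −0.03 for all tested genes, with 18 genes above 0 and 18 below.

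The group for lignin and domain of the strip held 11 tested genes, of which 3 were called higher and 0 lower, where 3.18% of all tested genes were higher and 2.19% lower. Its median log2 fold change was 0.55, beside −0.03 for all tested genes, and no test of the group was made. Several of its genes, among them PER64, AT1G44970, AT4G11290 and AT5G66390, were listed as peroxidases. The study reported class III peroxidase genes among those that LS raised. Whether the values of this group are particular to the strip was not tested. PER64, a peroxidase that CASP proteins hold at the strip, was at 2.60, 2.53 and 2.22 in LS, against 1.75, 1.48 and 1.34 in control seedlings. Its log2 fold change was 0.92 (SE 0.19, limma, adjusted p = 0.0386). LAC3, a laccase found at the strip, was at 1.83, 1.78 and 1.75 in LS, against 0.95, 0.88 and 0.32 in control seedlings, a log2 fold change of 1.07 (SE 0.20, limma, adjusted p = 0.0349). LS arrays were above all control arrays for both. The locus AT1G44970, to which the reference gives no symbol, averaged 1.33 ± 0.10 in LS and 0.09 ± 0.38 in control seedlings (SD, n = 3 each). Its log2 fold change was 1.25 (SE 0.22, limma, adjusted p = 0.0302), and its dimmer probe was also called at 1.41 (limma, adjusted p = 0.0476). Both probes of AT4G11290 had LS above all controls with log2 fold changes of like size, and they fell on either side of the threshold, since the brighter one missed it at 0.95 (limma, adjusted p = 0.0507) and the dimmer one passed it at 1.16 (limma, adjusted p = 0.0334). In this group 8 genes had a log2 fold change above 0 and 3 had one below 0. UCC1 was at −0.64 (limma, adjusted p = 0.105), with LS below all controls. EXO70A1 was at −0.04 and AT5G66390 at −0.02 on its brightest probe. AT4G11290 and these 3 genes were named after their values were seen.

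**Figure D5:**
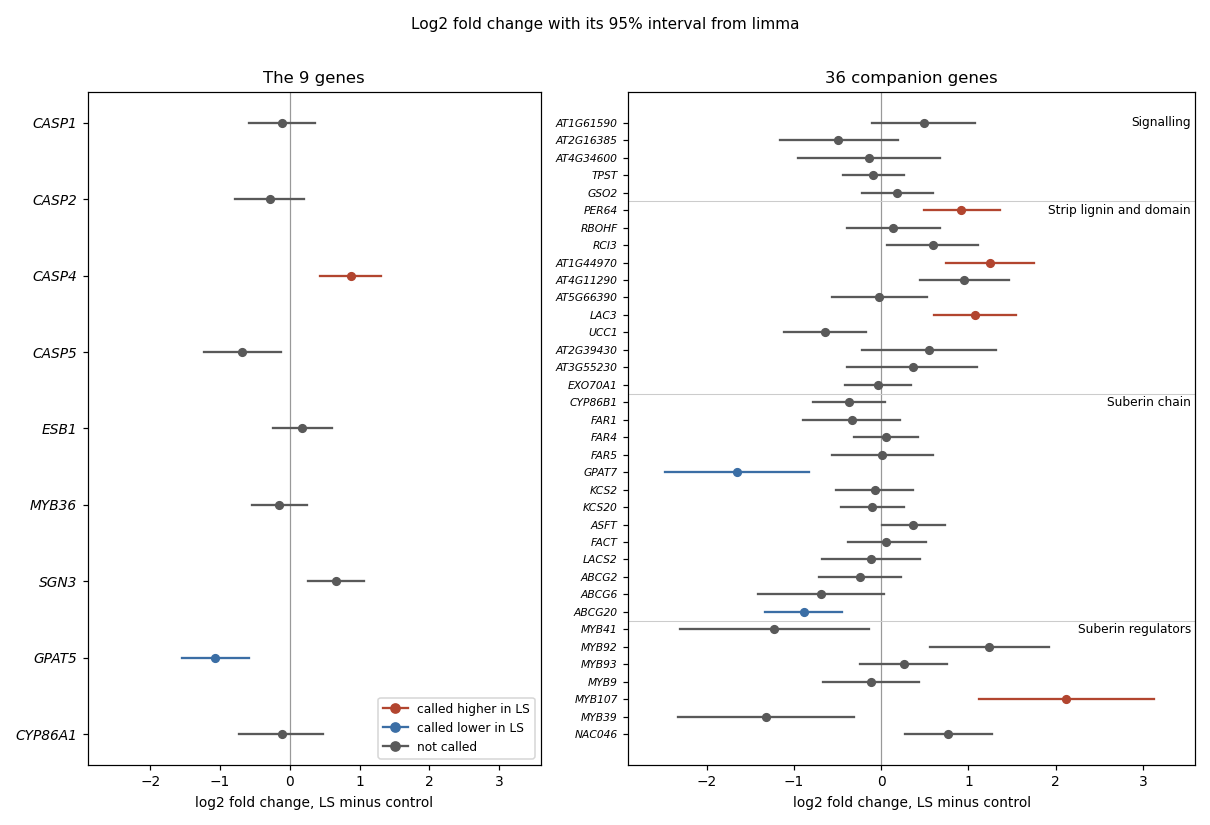
Log2 fold change (LS minus control) with its 95% interval from limma for the 9 genes on the left and for the 36 tested companion genes on the right, grouped by role, with red for called higher, blue for called lower and grey for not called. CASP4, 3 genes of strip lignin and the suberin regulator MYB107 are called higher, and GPAT5, GPAT7 and ABCG20 are called lower. The MYB107 probe was above background in LS only.

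The suberin chain held 13 tested genes, of which 0 were called higher (3.18% of all tested genes) and 2 lower (2.19%), with a median log2 fold change of −0.12 beside −0.03 for all tested genes. GPAT7, an acyltransferase of the same family as GPAT5, was at −2.74, −2.33 and −3.14 in LS, against −1.67, −1.21 and −0.37 in control seedlings. All LS arrays were below all control arrays, and the log2 fold change was −1.65 (SE 0.36, limma, adjusted p = 0.0448). ABCG20, a transporter needed for the suberin barrier of roots and seed coats, averaged −2.66 ± 0.13 in LS and −1.77 ± 0.27 in control seedlings (SD, n = 3 each). Its log2 fold change was −0.89 (SE 0.19, limma, adjusted p = 0.0436). The remaining 11 genes, among them the fatty acyl reductases FAR1, FAR4 and FAR5 and the feruloyl transferase ASFT, ran from −0.69 for ABCG6 to 0.37 for ASFT and were not called.

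Of 8 suberin regulators, 6 were tested on probes well above background in both groups, and 0 of these were called. Over all tested genes 3.18% were called higher and 2.19% lower. MYB107, a factor that activates suberin genes in seed coats, was well above background on all 3 LS arrays and on 0 of 3 control arrays, and was at least 2.43-fold higher in LS (limma, adjusted p = 0.0396 for the fitted difference). It entered the test only through the LS group, where it was high, so its call is no support for the list. This bound sets the mean of the LS arrays against the lowest signal called well above background on each control array, or the probe's own signal where that was higher. With a normexp correction the fitted difference of MYB107 shrank to 0.19 (limma, adjusted p = 0.432). That correction adds an offset of 50 to every signal, which shrinks the differences of dim probes by construction. The 0.19 is therefore no evidence on the size of the MYB107 difference. MYB53 was well above background on 2 LS arrays and on 0 control arrays and was not tested. The other regulators had values on both sides of 0 and did not pass the test, with MYB92 at 1.24 (limma, adjusted p = 0.0551), NAC046 at 0.77 (limma, adjusted p = 0.0818), MYB41 at −1.23 (limma, adjusted p = 0.154) and MYB39 at −1.32 (limma, adjusted p = 0.113).

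The signalling group around SGN3 held 5 tested genes, 0 of which were called at the adjusted threshold or had an unadjusted p under 0.05 from limma. Over all tested genes 3.18% were called higher and 2.19% lower, and at the unadjusted p 12.9% were higher and 13.1% lower. Counts over 5 genes do not set the group apart from these shares. The median log2 fold change of the group was −0.09. The changes farthest from 0 were 0.49 for AT1G61590 (limma, adjusted p = 0.268) and −0.49 for AT2G16385 (limma, adjusted p = 0.329), neither of which has a symbol in the reference. TPST, the enzyme that sulfates tyrosines of the peptide ligands, was at −0.09 (limma, adjusted p = 0.735).

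Leaving out 1 array ended most of these calls too. Of the 6 such fits, at most 1 still called any given companion gene. Without LS array 3, PER64 was called at 1.04 (limma, adjusted p = 0.0469). The other 5 called companion genes kept their sign and were not called, with LAC3 at 1.09, AT1G44970 at 1.22, GPAT7 at −1.45, ABCG20 at −0.87 and MYB107 at 2.11.

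Markers of the endodermis, the tissue that makes both barriers, were present on all arrays. The list includes SHR, whose RNA is made in the stele. Of 6 marker genes, 0 were called, where 3.18% of all tested genes were called higher and 2.19% lower. At an unadjusted p under 0.05 from limma, 3 were higher, where 12.9% of all tested genes were. A log2 fold change above 0 was found for 5 of the 6, where 47% of all tested genes had one, and the median was 0.44. SCL3 was at 0.89 (limma, adjusted p = 0.0565) and SCR, the factor that specifies the endodermis, was at 0.73 on its bright probe (limma, adjusted p = 0.0671) and at −1.15 on a probe near background (limma, adjusted p = 0.0666). The summed linear level of the 6 markers, in multiples of the 75th percentile, ran from 9.94 to 13.9 on LS arrays and from 7.04 to 7.73 on control arrays. The summed level was thus higher on every LS array than on any control array. SCL3 weighs most in that sum (mean level 2.48 in LS and 1.59 in control seedlings). LS was above all controls for 4 of the 6 markers, where this held for 17.5% of all tested genes. The part of the summed level in the results of the barrier genes was not tested.

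Markers of other tissues were summed in the same way. The 3 root meristem markers summed to 0.0785 to 0.0823 in LS and 0.0250 to 0.0568 in control seedlings. Of these, 1 was called higher, the stem cell niche factor WOX5 at 1.02 (limma, adjusted p = 0.0262). Over all tested genes 3.18% were called higher and 2.19% lower. Levels of the 3 markers were low, with control means of −7.04 for PLT1, −5.72 for PLT2 and −6.70 for WOX5. PLT1 was well above background on only 2 of 3 control arrays. The 5 markers of root epidermis and hairs summed to 3.87 to 4.05 in LS and 2.88 to 3.34 in control seedlings with 0 called. Within that list COBL9 (1.64) and EXPA7 (1.73) had log2 fold changes above 0, while GL2 (−0.69), PIN2 (−0.26) and RHD6 (−0.02) were below 0, and the median was −0.02. Sums of the 4 stele markers (4.88 to 5.06 in LS, 4.06 to 5.15 in control) and of the 4 shoot markers (14.4 to 19.6 in LS, 16.8 to 18.3 in control) overlapped, again with 0 called. These sums hide members whose groups were separated. In the stele list, LS was above all controls for PHO1 (0.50) and WOL (0.43) and below them for SUC2 (−0.63), while APL overlapped. In the shoot list, LS was below all controls for STM (−0.72), while FIL, CER6 and ATML1 overlapped. CER6 weighs most in the shoot sum (mean level 3.67 in LS and 3.78 in control seedlings). The part of these tissues in the barrier genes' results was not tested.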

How the data were processed

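The genes and the companion and marker lists were chosen with earlier results of these data known. The rule gave 10 genes, of which 9 are described and 1 is not reported here. Summaries over the genes are over these 9, while the fit and its adjustment cover the whole array. RNA was labelled with Cy3 and hybridised to 1-colour arrays, and the authors extracted the scans with Agilent Feature Extraction, version 10.7.3.1. The authors' processed signal of a spot is a linear intensity with the local background taken off. The deposited files also hold per-spot marks for background, saturation and outliers (unit: other). A further table deposited by the authors gives, for 38614 spots, a ratio, the processed signal over the array's 75th percentile, which served as an alternative here. Groups were taken from the labels, and 0 sample columns were left unmapped.

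The 1417 control spots were left out. Processed signals were taken as log2 minus each array's 75th percentile, outlier spots were set missing, spots of a probe were averaged, and probes had to be well above background throughout the LS or the control group, which left 32349 for testing. The fit used lmFit and eBayes of limma 3.58.1 under R 4.3.3 (Benjamini-Hochberg adjusted p under 0.05 over all tested probes, fold of at least 1.5). A gene with several tested probes was read from the brightest. With 3 arrays per group, the number of arrays limits the precision, and an exact permutation test could not go below 0.1. The code was tested on simulated arrays of 32121 probes with 200 changed for this comparison. There limma recovered 19.4%, 74.6% and 97.0% of probes changed by 1, 2 and 3 log2 units, with 5 false calls. The simulated noise was independent between probes and held no slide or array shifts, so these rates need not hold for the real arrays. Symbols and synonyms came from the TAIR10.1 reference, which named 21607 tested loci. Coordinates are left out because the array design predates this reference, and sequences and promoters were not used here.

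Named are the 9 genes and the called genes of each companion list (or, with none called, the 2 with the largest change). The comparison of other loci with the mean CASP profile is left out. Other genes, such as MYB92, AT4G11290 and the markers, were named after their values were seen. Alternatives covered the scaling, the background correction, the filter on dim probes, outlier marks, the test (the Welch test of the study's methods), its adjustment and fold, the probes of a gene, a block for replicate number or for slide, slide 1 alone, the deposited table, and each array left out. The files hold no mean signal, so normexp was run on the median signal with an offset of 50.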

Additional observations from a re-analysis of the deposited data

How the results depend on the processing

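The 23 alternatives kept the direction of CASP4, CASP5, ESB1, SGN3 and GPAT5, though CASP5 shrank to −0.09 with spike-in centring. Many of the alternatives could not change a direction. Those for the test, its adjustment and fold, and the filter on dim probes left CASP4 at 0.87 and GPAT5 at −1.07. So did those for outlier marks, the probes of a gene and the replicate block. CASP4 was called in 9 of the 23 alternatives and GPAT5 in 12. The main counts were 1 higher and 1 lower for the 9 genes, 4 higher and 2 lower for the companion genes, and 694 higher and 478 lower for all tested genes. For the 9 genes, 0 were called higher with median centring, spike-in centring or a fold of at least 2, and 2 with normexp, the methods' Welch test without adjustment (where all tested genes gave 1215 higher and 984 lower) or limma without adjustment (2 lower). Spike-in centring gave 0 lower among the 9 genes and the companion genes, 56 lower over all genes, a median of 0.47 for the 9 genes and 0.59 for the companion genes, and turned CASP1 (0.48), CASP2 (0.30), MYB36 (0.44), CYP86A1 (0.47) and AT2G16385 (0.10). The slide block and slide 1 alone give the same differences by construction. With no filter on dim probes, with the methods' test adjusted, with slide as a block and within slide 1, 0 of the 9 genes and 0 companion genes were called in either direction, and all genes gave 114 and 67, 1 and 0, 22 and 47, and 54 and 117 calls higher and lower. Limma without adjustment called 8 companion genes higher and 5 lower, and 1925 and 1967 of all genes. A fold of at least 2 left 1 companion gene lower. The companion median was −0.07 with median centring and 0.08 with the mean of all probes, where 781 of all genes were lower. The median of the 9 genes, −0.12, turned to 0.06 with slide as a block and within slide 1. CASP1 turned to 0.08 with quantile normalization, to 0.06 with slide as a block and within slide 1, and CYP86A1 to 0.40 in both of the last. The cause of these moves was not tested.

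Groups share replicate numbers. The deviations of same-numbered arrays correlated at 0.03, −0.12 and −0.19, and those of differently numbered arrays at −0.13 to 0.20. These values show no pairing by number, but so few arrays cannot exclude one. With the replicate number as a block, 0 of the 9 genes and 0 companion genes were called higher or lower, and 170 and 109 of all genes.

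With each array left out in turn, the 9 genes gave 0 to 0 higher, 0 to 1 lower and a median of −0.21 to 0.08, the companion genes 0 to 2 higher, 0 to 0 lower and a median of −0.02 to 0.06, and all genes 35 to 506 higher and 9 to 434 lower. The fewest calls in both directions came without control array 2, and most came without LS array 2. CASP1 ran from −0.21 to 0.08 and CYP86A1 from −0.38 to 0.09. All 10 probes of the 9 genes were well above background on all arrays, and 3 arrays per group limit the precision.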
